A study of Mus musculus with 14 samples.

Results

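The respiratory chain genes described here were those whose symbols mark them as nuclear-encoded parts, or close relatives of parts, of the 5 enzyme complexes of oxidative phosphorylation. They were chosen by symbol alone: names starting with Nduf (complex I), Sdha to Sdhd (complex II), names starting with Uqcr together with Cyc1 (complex III), names starting with Cox4 to Cox8 but without Cox7a1 (complex IV), and names starting with Atp5 (complex V). The rule found 84 genes on 156 of the 22690 probe sets of the array, a probe set being a group of probes against 1 transcript. Complex I held 39 genes, complex II 4, complex III 9, complex IV 15 and complex V 17. Of the 156 probe sets 151 passed a filter on low levels, each of the 84 genes kept at least 1 of them, and the 84 were tested among 10696 genes in all. A further 8 probe sets that name several genes, with a fitting symbol among them, were left out. The subunits encoded by mitochondrial DNA were not analysed here.

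The study followed the mouse mammary gland through puberty with 14 Affymetrix expression arrays. RNA came from whole inguinal glands (pair number 4) of female CD1 mice, an outbred stock, at 3, 4, 5, 6 and 7 weeks of age, named 3wk to 7wk below, with 3 arrays per age (A, B and C) except for 2 at 5wk (A and B). The mice carried no stated allele and had no treatment, and the lymph nodes were removed from every gland. Each array was hybridised with RNA pooled from at least 3 mice, and p-values therefore reflect differences among pools; no source used here says whether pools of an age came from separate mice. A whole gland mixes fat, ducts, stroma and vessels, and fewer cells of a type and less RNA per cell cannot be told apart.

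Complexes I and II feed electrons from NADH and from succinate into ubiquinone, complex III hands them to cytochrome c, and complex IV passes them to oxygen. Complexes I, III and IV pump protons across the inner mitochondrial membrane, and complex V, the ATP synthase, uses their return to make ATP. Brown fat cells and oxidative muscle are known for dense mitochondria, and in brown fat the proton gradient is released as heat by Ucp1.

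RefSeq promoters (build GRCm38.p6, 300 bases around each gene's start) were on hand for 69 of the 84 genes, and 4 are shown over the 150 bases before the start, each on the strand of its gene. They were picked after the values were seen, to set genes that fell (Sdhb, Atp5h and Cox8b) beside one that was not called (Atp5g2). They also show matches to some of the motifs searched, and the YY1 and ERR motifs have no match in them. Capitals mark a match to the NRF1 core GCATGCGC in Sdhb and Atp5g2, where 2 matches overlap on opposite strands, and to the GABP and ETS motif CCGGAAGT on the opposite strand in Atp5h; Cox8b has no match. The windows are chr4:140961121-140961270 (plus strand) for Sdhb, chr11:115419920-115420069 (minus) for Atp5h, chr7:140900447-140900596 (minus) for Cox8b and chr15:102671048-102671197 (minus) for Atp5g2.
Sdhb: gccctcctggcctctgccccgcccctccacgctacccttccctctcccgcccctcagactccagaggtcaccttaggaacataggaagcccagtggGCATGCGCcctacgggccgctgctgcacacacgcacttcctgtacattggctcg
Atp5h: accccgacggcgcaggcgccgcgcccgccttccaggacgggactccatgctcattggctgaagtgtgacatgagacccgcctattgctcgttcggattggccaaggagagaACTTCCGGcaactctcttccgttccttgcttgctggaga
Cox8b: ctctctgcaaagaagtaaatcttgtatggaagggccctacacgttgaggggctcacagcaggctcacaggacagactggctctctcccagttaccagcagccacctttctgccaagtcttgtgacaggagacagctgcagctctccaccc
Atp5g2: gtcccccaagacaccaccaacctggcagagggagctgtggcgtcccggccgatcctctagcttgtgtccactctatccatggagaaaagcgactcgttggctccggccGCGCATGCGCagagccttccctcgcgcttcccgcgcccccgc

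Motifs were searched on both strands. The NRF1 core stood in 11 of the 69 member promoters (15.9%), in 5.50% of the 8577 promoters of all genes tested and in 3.05% of 27025 promoters in all. The YY1 motif AAGATGGCG stood in 6 of 69 (8.70%), in 3.11% of tested genes and in 1.64% of all. CCGGAAGT stood in 5 (7.25%), in 7.99% of tested genes and in 4.31% of all. The ERR motif TCAAGGTCA, which contains the ERR core AAGGTCA, stood in 2 (2.90%, against 0.361% and 0.466%), and the core in 7 (10.1%, against 4.16% and 5.38%). Among the genes that fell by 7wk, as defined next, 3 of 31 promoters held the NRF1 core, and 8 of 38 did among the members that were not called. A match describes these letters only and was not tested for binding.

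The deposited values are each probe set's signal divided by the median it had across the arrays, so 1 is a probe set's middle level and levels cannot be compared between genes. A gene was the mean log2 ratio of its probe sets, and its printed ratio is that mean turned back to the linear scale. Ages were compared with limma over all 10696 genes, and a gene is said to rise or fall where its Benjamini-Hochberg adjusted p was under 0.05.

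Expression of the respiratory chain was highest at 3wk and 4wk and lower from 5wk on. From 3wk to 7wk 39 of the 84 genes fell and 0 rose, with a median log2 difference of -0.50 over the 84; of all genes 2.97% fell and 7.09% rose, with a median of 0.09. The difference was below 0 for 82 of the 84 (97.6%), against 40.2% of all genes. All 7wk arrays lay below all 3wk arrays for 62 of the 84, against 9.96% of all genes. Across all 5 ages the F test called 31 of the 84, against 10.8% of all genes.

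**Figure D1:**
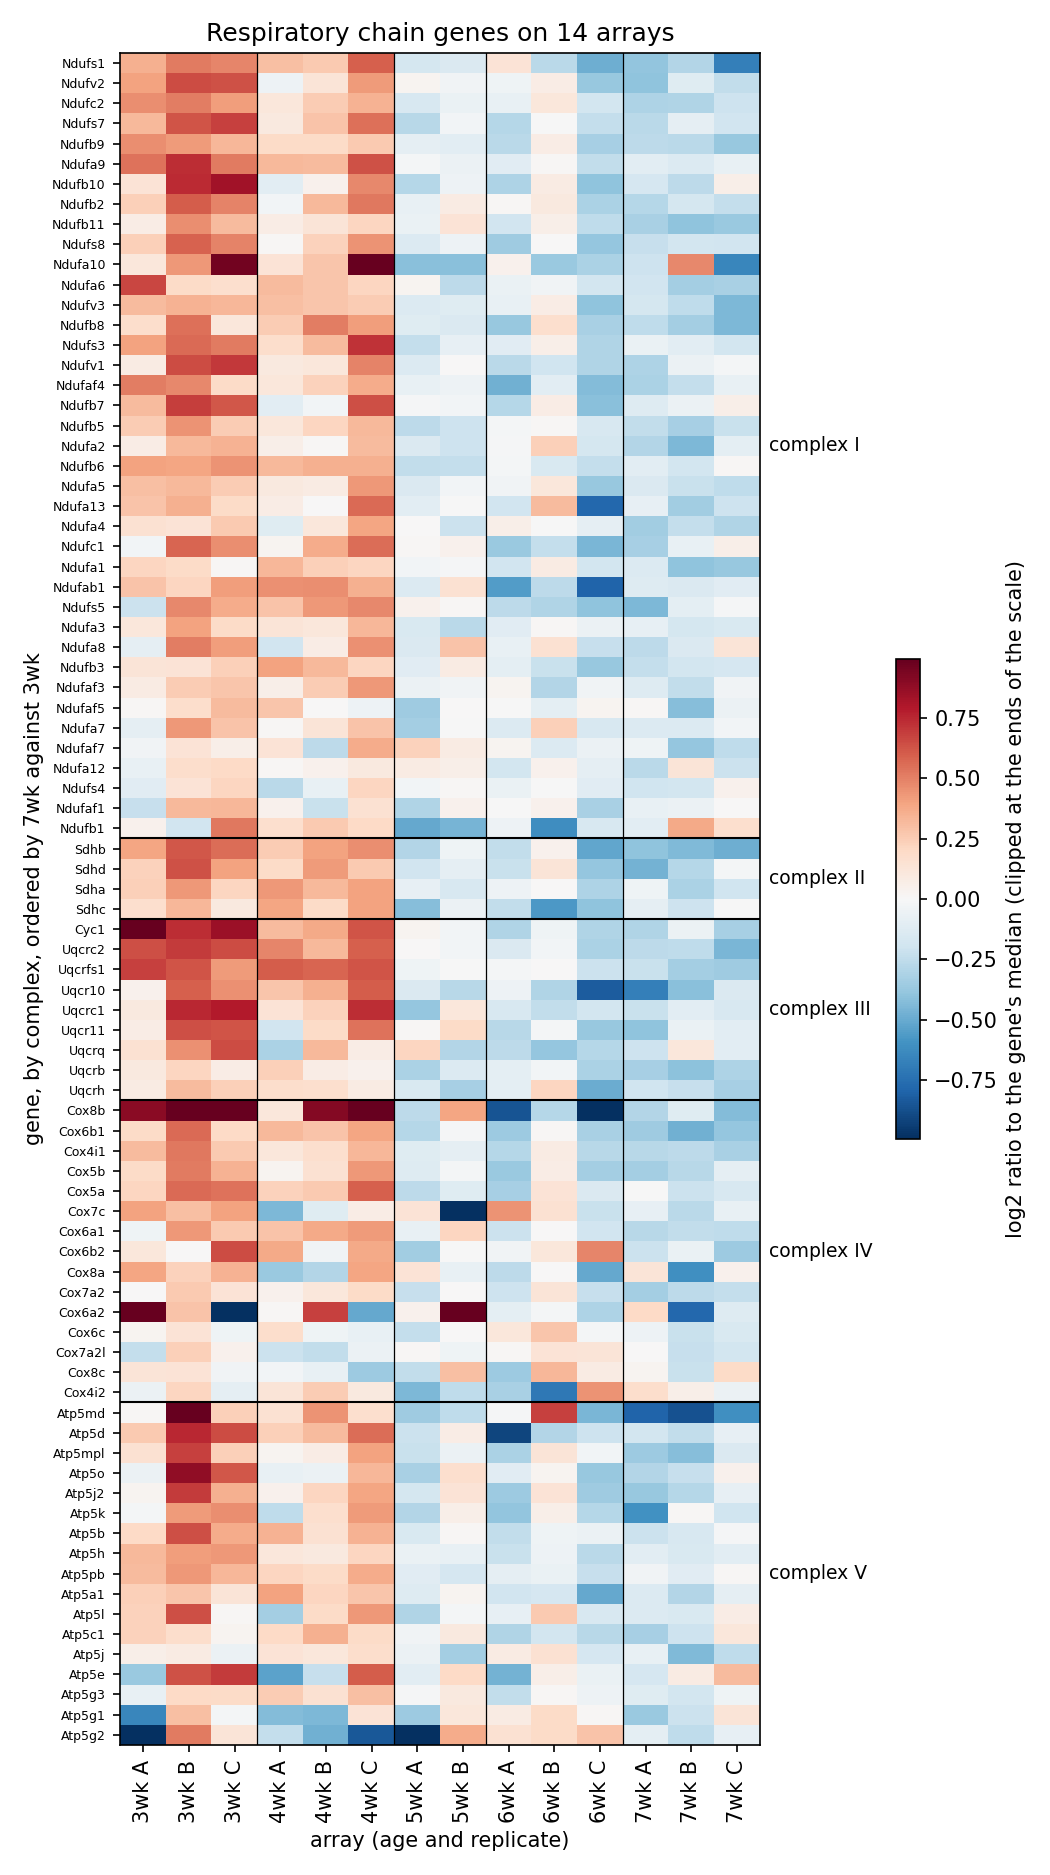
Log2 ratio of each of the 84 genes (lines of the map, grouped by complex and ordered by the 7wk against 3wk difference) on each of the 14 arrays (columns, by age); red is above and blue below the gene's own median, and the colours are clipped at the ends of the scale. The 3wk and 4wk columns are mostly red and the 5wk to 7wk columns mostly blue. Some genes do not show that order, among them Atp5g1, Atp5g2, Cox6a2, Cox4i2, Cox7a2l and Ndufb1.

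Per array, the median of the 84 log2 ratios was 0.15 (A), 0.43 (B) and 0.34 (C) at 3wk, 0.12, 0.19 and 0.37 at 4wk, -0.14 and -0.03 at 5wk, -0.15, 0.01 and -0.28 at 6wk, and -0.21, -0.22 and -0.15 at 7wk. Every 3wk and 4wk array stood above every 5wk, 6wk and 7wk array. As means these were 0.31 ± 0.14 (SD, n = 3) at 3wk and -0.19 ± 0.04 (SD, n = 3) at 7wk.

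Most of the decline in the median lay between 4wk and 5wk. All comparisons with 3wk share the same 3 arrays and are given side by side. At 4wk limma called 0 of the 84, with a median of -0.11, where 0.00935% of all genes fell and 0.168% rose. An unadjusted p under 0.05 was found there for 3 of the 84 and for 1166 of all 10696 genes. At 5wk 12 had fallen (1.64% of all genes fell, 3.02% rose), with a median of -0.44. At 6wk 38 had fallen (4.25% fell, 9.81% rose), with a median of -0.49. The 4wk median was 21.9% of the 7wk median, the 5wk median 87.0% and the 6wk median 97.5%.

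From one week to the next, 5wk against 4wk had a median of -0.31 over the 84. An unadjusted p under 0.05 was found for 31 of the 84 and for 1584 of all 10696 genes. Of all genes 0.374% fell and 0.393% rose. Of the 84 genes 2 fell, Ndufb6 of complex I and Uqcrfs1, the Rieske iron-sulfur protein of complex III. Leaving out 1 array at a time, both calls held only without 3wk A or without 6wk C, and 0 members were called without any other array. Between 5wk and 6wk limma called 0 members, with a median of -0.05, and 0.0467% of all genes fell and 0.0374% rose. The unadjusted p was under 0.05 for 1 member and for 986 of all 10696 genes. Between 6wk and 7wk limma called 0 members, with a median of -0.05, and 0.0654% of all genes fell and 0.290% rose. Here the unadjusted p was under 0.05 for 3 members and for 1362 of all genes.

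The counts rested on few arrays, while the complex medians stayed below 0 without any 1 of them. The 39 genes that fell by 7wk became 19 without 3wk B, 24 without 3wk C, 21 without 7wk A, 18 without 7wk B and 19 without 7wk C, where 1.64%, 1.98%, 2.08%, 1.54% and 1.65% of all genes fell. The 38 at 6wk became 16 without 3wk B, 20 without 3wk C, 22 without 6wk A and 17 without 6wk C (2.69%, 2.72%, 2.80% and 3.56% of all genes). The 12 at 5wk became 3 without 3wk B, 7 without 3wk C, 1 without 5wk A and 0 without 5wk B (0.860%, 1.08%, 0.626% and 0.496% of all genes). In the last pair of fits the lone 5wk array is assumed to vary like the other ages. The 31 of the F test became 15 without 3wk B, 17 without 3wk C, 18 without 7wk B and 20 without 7wk C, where it called 7.70%, 7.93%, 7.68% and 7.69% of all genes. In the 14 fits that each left out 1 array, 17 of the 39 genes kept their call at 7wk every time: Ndufs1, Ndufs7, Ndufv2, Ndufa9, Ndufb5, Ndufb6, Ndufb9, Ndufb11, Ndufc2, Sdhb, Cyc1, Uqcrc2, Uqcrfs1, Cox4i1, Cox6b1, Cox8b and Atp5h.

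Technical measures also differed between ages. Control transcripts added at hybridisation averaged a log2 ratio of -1.21 at 7wk (from -1.86 to -0.79 on its arrays) and 0.15 at 3wk (-0.23 to 0.56), and with that average as a covariate 4 of the 39 kept a call: Ndufa6, Cyc1, Uqcrc2 and Uqcrfs1, where 0.645% of all genes fell. The complex medians in that fit lay between -0.62 and -0.32. The log2 ratio of 5' to 3' probe sets of 1 transcript is lower where RNA is shorter. For actin it averaged 0.07 at 3wk, 0.20 at 4wk (0.10 to 0.28), -0.21 at 5wk (-0.26 to -0.16), -0.44 at 6wk (-0.79 to -0.08) and 0.11 at 7wk (0.04 to 0.16). For pyruvate carboxylase it averaged -0.09 at 3wk, 0.33 at 4wk (0.08 to 0.46), -0.95 at 5wk (-1.25 to -0.66), -2.37 at 6wk (-2.78 to -1.81) and 0.82 at 7wk (0.76 to 0.90), and for Gapdh 0.03, 0.06, -0.02, -0.23 and 0.14. Actin and pyruvate carboxylase dropped without overlap between 4wk and 5wk, the same weeks as the step in the members' median. At 7wk neither was below its 3wk average. Whether RNA quality had a part in the members' step was not tested. With the actin ratio as a covariate 17 members fell at 5wk (1.08% of all genes in that fit), 22 at 6wk (1.15%) and 38 at 7wk (2.82%), and of 5wk against 4wk, where 2 had been called, 0 were (0.0374% of all genes fell). The part of pyruvate carboxylase and Gapdh was not tested. Leaving out 6wk A together with 6wk B, whose actin ratios were the smallest, 19 fell at 6wk (1.57% of all genes), where the lone array left is assumed to vary like the other ages.

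**Figure D2:**
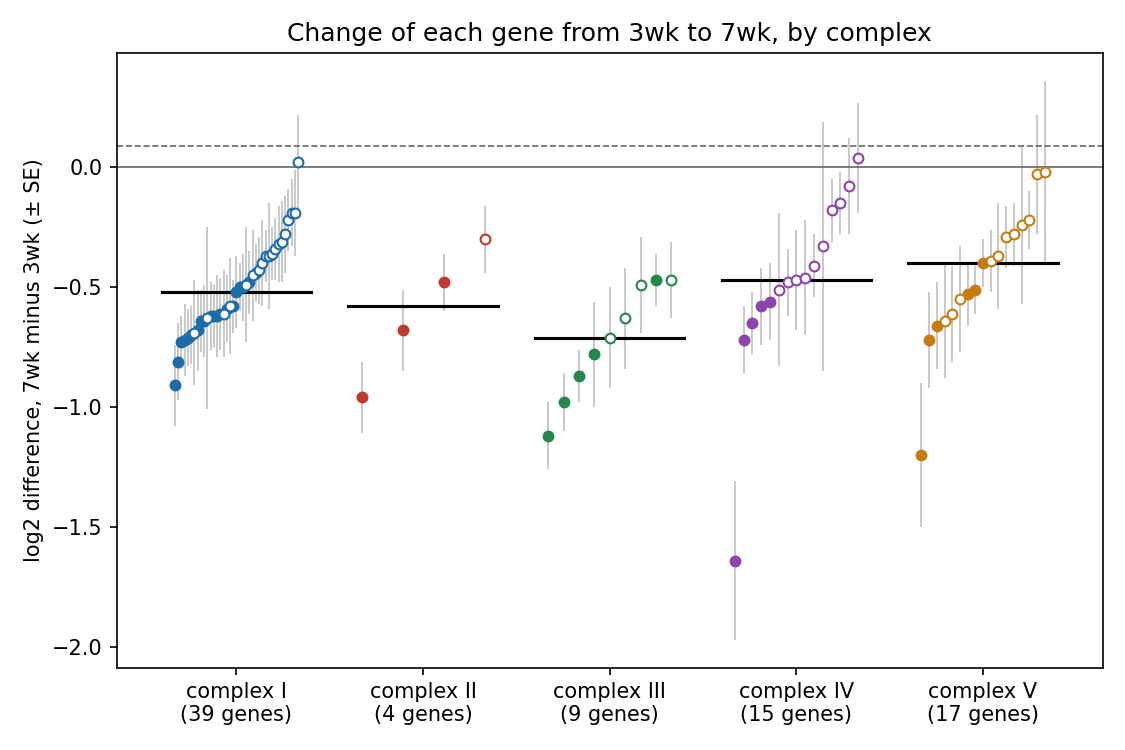
Log2 difference of 7wk against 3wk with its standard error (vertical axis) for each gene, by complex; filled points are genes called by limma, open points are not, black bars are the complex medians, and the dashed line is the median of all genes. The medians run from -0.71 in complex III to -0.40 in complex V, and the ranges of the complexes overlap.

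Set side by side, the 7wk against 3wk medians were -0.52 in complex I (20 of 39 fell), -0.58 in complex II (3 of 4), -0.71 in complex III (5 of 9), -0.47 in complex IV (5 of 15) and -0.40 in complex V (6 of 17). The differences between complexes were not tested. On single arrays the order of the complexes changed: the highest median belonged to complex II on 3wk A and to complex III on 3wk B and C, and at 7wk the lowest belonged to complex III on arrays A and C and to complex II on B. Between the highest and the lowest complex the arrays showed gaps of 0.11 (6wk B) to 0.37 (3wk C).

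**Figure D3:**
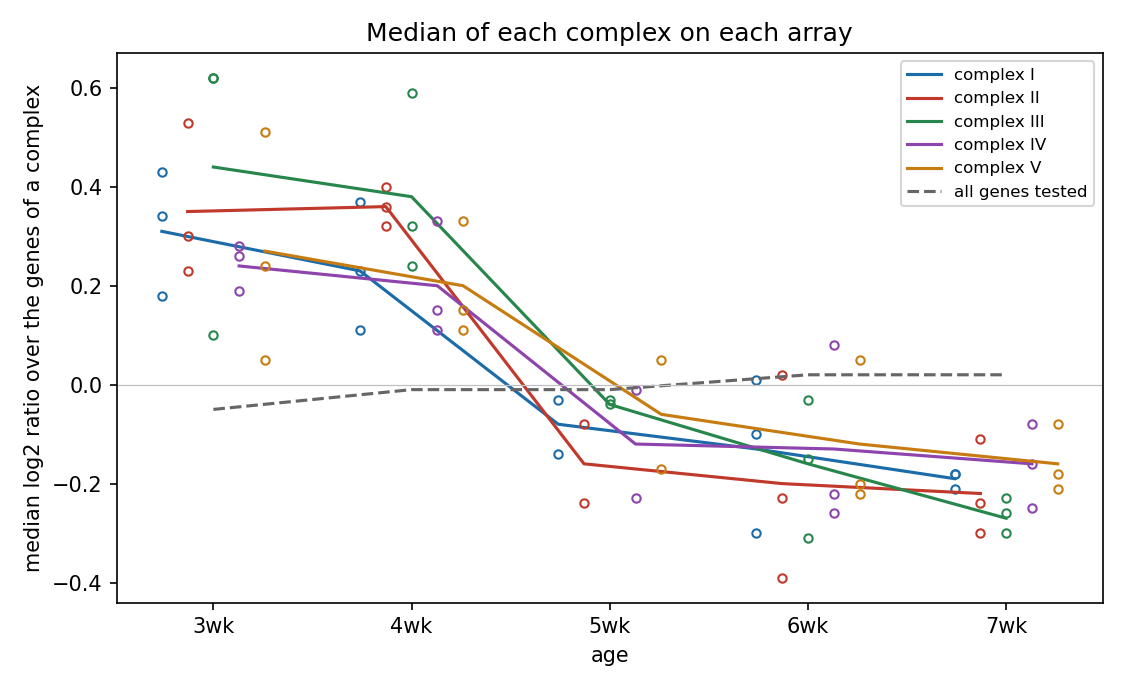
Median log2 ratio over the genes of each complex (vertical axis) on each array (open circles) by age, with lines through the age means and a dashed line for all genes tested. In each of the 5 complexes the 3wk and 4wk arrays lie above the 7wk arrays, and all genes stay near 0.

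Complex I, the NADH dehydrogenase, is the largest enzyme of the chain. Its core subunits, which bind NADH and carry the flavin and the iron-sulfur clusters, had a median of -0.68 at 7wk, and 5 of the 6 measured fell, with Ndufv1 at -0.61 (adjusted p = 0.0508). At 6wk all 6 core subunits fell, with the same median of -0.68. Accessory subunits, which surround and stabilise the core, had a median of -0.50, and 14 of 28 fell. Of the 5 assembly factors, which help build the enzyme and are not part of it, Ndufaf4 fell and the median was -0.32.

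Ndufs1, the largest iron-sulfur subunit, stood at 1.28, 1.43 and 1.40 at 3wk, 1.23, 1.20 and 1.51 at 4wk, 0.886 and 0.905 at 5wk, 1.10, 0.830 and 0.713 at 6wk, and 0.761, 0.817 and 0.626 at 7wk. The 3wk and 7wk arrays did not overlap, and 6wk A was well above the other 6wk arrays. The log2 difference of 7wk against 3wk was -0.91 (SE 0.17, adjusted p = 0.00702), the lowest in complex I. Ndufv2, the partner of the NADH-binding subunit, stood at 1.32, 1.57 and 1.55 at 3wk, 0.967, 1.09 and 1.34 at 4wk, 1.02 and 0.977 at 5wk, 0.971, 1.05 and 0.772 at 6wk, and 0.758, 0.920 and 0.845 at 7wk. Its difference was -0.81 (SE 0.16, adjusted p = 0.00889), and its 3wk arrays lay above all 5wk, 6wk and 7wk arrays. The 3 other core genes that fell belong to the arm between NADH and ubiquinone: Ndufs7 at -0.72 (SE 0.15, adjusted p = 0.0124), Ndufs8 at -0.64 (SE 0.15, adjusted p = 0.0202) and Ndufs3 at -0.61 (SE 0.15, adjusted p = 0.0261).

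Among accessory subunits the calls at 7wk ran from Ndufc2 at -0.73 (SE 0.11, adjusted p = 0.00232) to Ndufa1 at -0.44 (SE 0.12, adjusted p = 0.0409). Ndufab1, the mitochondrial acyl carrier protein, fell at 6wk by 0.84 (SE 0.14, adjusted p = 0.00338) and measured -0.43 (SE 0.14, adjusted p = 0.0795) at 7wk. Its tested probe sets differed at 6wk (-1.26 and -0.42) and were alike at 7wk (-0.41 and -0.45). Ndufa4 carries a complex I name and was later found in complex IV. It stood at 1.11, 1.10 and 1.20 at 3wk, 0.922, 1.08 and 1.31 at 4wk, 1.0 and 0.863 at 5wk, 1.04, 0.999 and 0.939 at 6wk, and 0.786, 0.851 and 0.815 at 7wk. Its groups at 3wk and 7wk did not overlap, the difference was -0.48 (SE 0.13, adjusted p = 0.0459), and its call held in 2 of the 14 fits without 1 array. Ndufb1 stood at 1.03, 0.876 and 1.44 at 3wk, 1.12, 1.20 and 1.15 at 4wk, 0.702 and 0.727 at 5wk, 0.965, 0.652 and 0.895 at 6wk, and 0.928, 1.30 and 1.12 at 7wk, with 3wk and 7wk overlapping and the difference at 0.02 (SE 0.20, adjusted p = 0.976), the highest of complex I. Ndufa10 spread most among replicates of the accessory genes, with a difference of -0.63 (SE 0.38, adjusted p = 0.354). The spread lay in its dimmer probe set (-0.68, SE 0.70, adjusted p = 0.626 over all probe sets, limma). The brighter probe set measured -0.57 (SE 0.15, adjusted p = 0.0343).

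Complex II, the succinate dehydrogenase, is also an enzyme of the citric acid cycle. Sdha, which holds the flavin and oxidises succinate, stood at 1.18, 1.35 and 1.16 at 3wk, 1.35, 1.25 and 1.32 at 4wk, 0.943 and 0.898 at 5wk, 0.964, 1.0 and 0.810 at 6wk, and 0.969, 0.806 and 0.871 at 7wk. Sdhb, its iron-sulfur partner, whose promoter is shown above, stood at 1.31, 1.53 and 1.47 at 3wk, 1.19, 1.32 and 1.38 at 4wk, 0.818 and 0.970 at 5wk, 0.843, 1.03 and 0.70 at 6wk, and 0.760, 0.737 and 0.714 at 7wk. Both had all 3wk and 4wk arrays above all 7wk arrays, with differences at 7wk of -0.48 (SE 0.12, adjusted p = 0.0313) for Sdha and -0.96 (SE 0.15, adjusted p = 0.0024) for Sdhb. Sdhb went from a mean ratio of 1.44 ± 0.118 (SD, n = 3) to 0.737 ± 0.023 (SD, n = 3).

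Sdhc and Sdhd anchor the enzyme in the membrane. Sdhc stood at 1.12, 1.26 and 1.07 at 3wk, 1.31, 1.14 and 1.32 at 4wk, 0.745 and 0.958 at 5wk, 0.842, 0.675 and 0.758 at 6wk, and 0.941, 0.867 and 0.996 at 7wk. Sdhd stood at 1.17, 1.55 and 1.32 at 3wk, 1.14, 1.34 and 1.20 at 4wk, 0.875 and 0.938 at 5wk, 0.857, 1.09 and 0.766 at 6wk, and 0.724, 0.820 and 0.989 at 7wk. All 4 genes of complex II fell at 6wk, Sdhc with a difference of -0.60 (SE 0.14, adjusted p = 0.0156). At 7wk Sdhd fell by 0.68 (SE 0.17, adjusted p = 0.0276), while Sdhc measured -0.30 (SE 0.14, adjusted p = 0.22) and was not called.

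Complex III, the cytochrome bc1 complex, had the lowest median of the 5. Cyc1, cytochrome c1, which passes electrons to cytochrome c, stood at 2.11, 1.66 and 1.80 at 3wk, 1.24, 1.30 and 1.54 at 4wk, 1.02 and 0.981 at 5wk, 0.812, 0.973 and 0.811 at 6wk, and 0.813, 0.959 and 0.796 at 7wk. The 3wk arrays were the highest 3 of the 14, and the mean ratio went from 1.86 ± 0.232 (SD, n = 3) to 0.856 ± 0.090 (SD, n = 3). The difference was -1.12 (SE 0.14, adjusted p = 0.000766). Uqcrc2, a core protein of the matrix side, stood at 1.56, 1.62 and 1.57 at 3wk, 1.40, 1.25 and 1.51 at 4wk, 1.0 and 0.979 at 5wk, 0.903, 0.982 and 0.805 at 6wk, and 0.835, 0.839 and 0.730 at 7wk. Its 3wk arrays were within 1.56 to 1.62 and its 7wk arrays within 0.730 to 0.839, a difference of -0.98 (SE 0.12, adjusted p = 0.000512). Uqcrfs1 fell by 0.87 (SE 0.11, adjusted p = 0.000729). Cyc1, Uqcrc2 and Uqcrfs1 had each fallen by 5wk, and the 3 kept their calls with the hybridisation controls as a covariate.

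The small subunits of complex III measured -0.78 to -0.47 at 7wk. Uqcrb, near the ubiquinone site, fell by 0.47 (SE 0.11, adjusted p = 0.025). Uqcr10 fell by 0.78 (SE 0.22, adjusted p = 0.0472), a call that held in 3 of the 14 fits. The probe sets of Uqcr10 measured -0.72, -0.45 and -1.16, the last being the dimmest. Taken singly none was called (adjusted p = 0.0571, 0.275 and 0.2 over all probe sets, limma). Uqcrh, the hinge protein beside cytochrome c1, stood at 1.06, 1.24 and 1.18 at 3wk, 1.13, 1.12 and 1.06 at 4wk, 0.899 and 0.795 at 5wk, 0.935, 1.16 and 0.711 at 6wk, and 0.870, 0.852 and 0.797 at 7wk. Its 3wk and 7wk arrays did not overlap, and the difference was -0.47 (SE 0.16, adjusted p = 0.0939). Uqcrc1, Uqcrq and Uqcr11 measured -0.71, -0.49 and -0.63 at 7wk and were not called, Uqcrc1 and Uqcrq having fallen at 6wk.

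**Figure D4:**
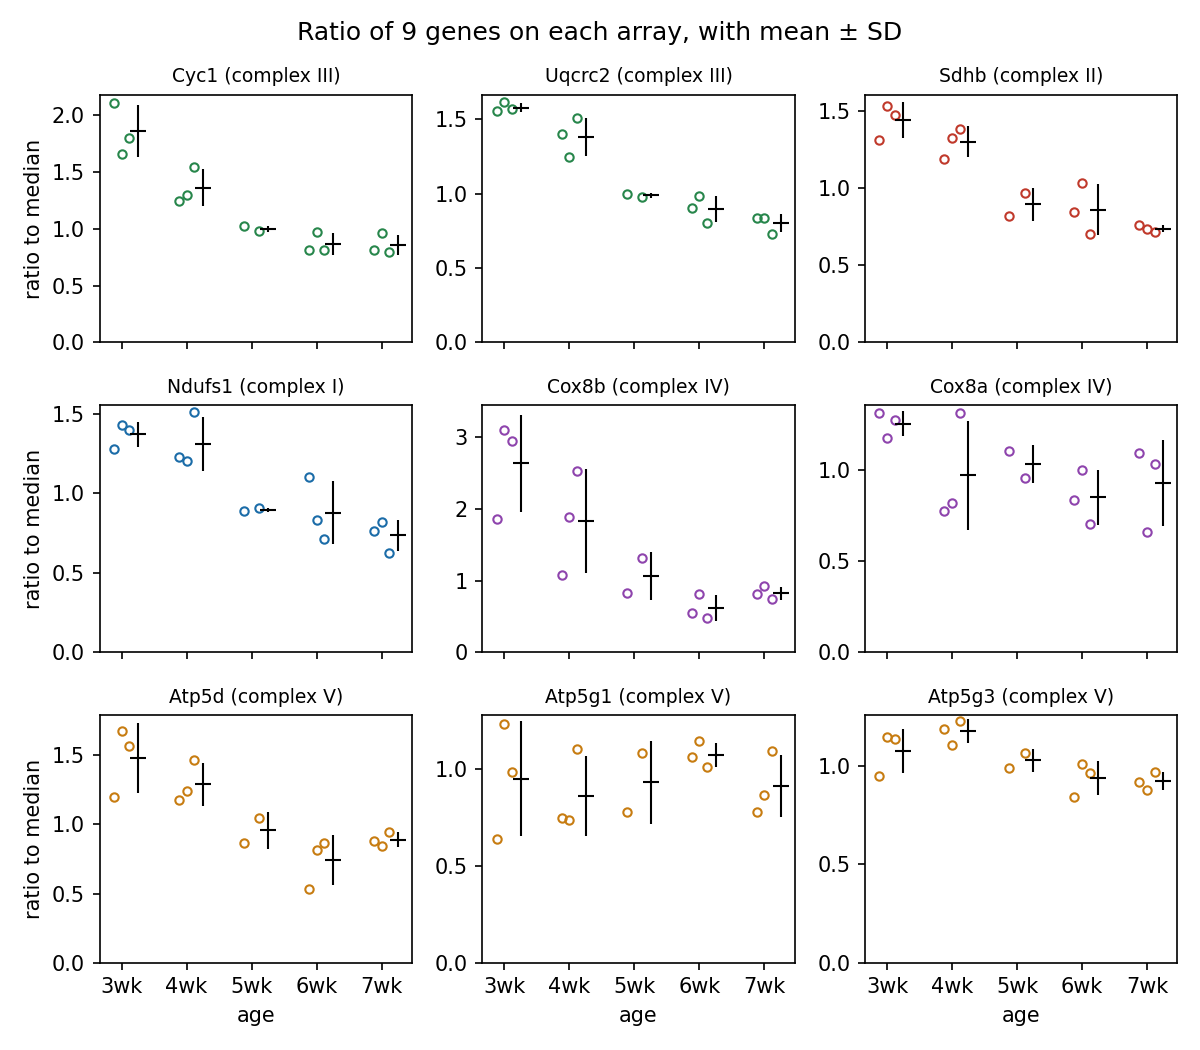
Ratio to the gene's median (vertical axis, starting at 0) on each array (open circles) by age for 9 genes, with the mean and SD of each age in black. Uqcrc2, Sdhb and Ndufs1 step down mostly after 4wk, and Cyc1 steps down both from 3wk to 4wk (-0.45) and from 4wk to 5wk (-0.44). Cox8b drops most in ratio, and Atp5g1 and Atp5g3 stay between 0.637 and 1.23.

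Complex IV, cytochrome c oxidase, has several subunits that come in tissue isoforms, which are given one by one. Cox4i1, the common isoform of a regulatory subunit, stood at 1.24, 1.44 and 1.20 at 3wk, 1.08, 1.12 and 1.26 at 4wk, 0.918 and 0.940 at 5wk, 0.824, 1.06 and 0.825 at 6wk, and 0.827, 0.837 and 0.798 at 7wk. It fell by 0.65 (SE 0.13, adjusted p = 0.00962) with all 3wk arrays above all 7wk arrays. Cox4i2, the isoform known from lung and from low oxygen, stood at 0.963, 1.16 and 0.939 at 3wk, 1.09, 1.19 and 1.07 at 4wk, 0.734 and 0.838 at 5wk, 0.799, 0.613 and 1.36 at 6wk, and 1.13, 1.04 and 0.963 at 7wk, with overlapping groups and a difference of 0.04 (SE 0.23, adjusted p = 0.949).

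Cox8b, the isoform known from heart, muscle and brown fat, stood at 1.86, 3.09 and 2.94 at 3wk, 1.08, 1.88 and 2.53 at 4wk, 0.834 and 1.31 at 5wk, 0.553, 0.820 and 0.475 at 6wk, and 0.817, 0.919 and 0.741 at 7wk. The spread at 3wk and 4wk was wide, and no 3wk array reached down to the 7wk arrays. The mean ratio was 2.63 ± 0.669 (SD, n = 3) at 3wk and 0.826 ± 0.089 (SD, n = 3) at 7wk, and the difference, -1.64 (SE 0.33, adjusted p = 0.00962), was the largest of the 84 genes; at 6wk it was -2.10 (SE 0.33, adjusted p = 0.00224). Cox8a, the common isoform, stood at 1.31, 1.17 and 1.27 at 3wk, 0.773, 0.819 and 1.31 at 4wk, 1.10 and 0.951 at 5wk, 0.834, 1.0 and 0.704 at 6wk, and 1.09, 0.656 and 1.03 at 7wk, with a difference of -0.46 (SE 0.24, adjusted p = 0.269). Its 3 probe sets disagreed: the dimmest measured 0.06, and the other 2 measured -0.67 (adjusted p = 0.00903 over all probe sets, limma) and -0.78 (adjusted p = 0.00487).

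Cox6a1, the common isoform, stood at 0.972, 1.35 and 1.20 at 3wk, 1.22, 1.30 and 1.34 at 4wk, 0.949 and 1.16 at 5wk, 0.861, 1.0 and 0.876 at 6wk, and 0.826, 0.843 and 0.839 at 7wk, without overlap between 3wk and 7wk, and the difference was -0.48 (SE 0.14, adjusted p = 0.0511). Cox6a2, the heart and muscle isoform, stood at 2.21, 1.22 and 0.456 at 3wk, 1.01, 1.60 and 0.702 at 4wk, 1.03 and 2.07 at 5wk, 0.937, 0.986 and 0.807 at 6wk, and 1.15, 0.581 and 0.916 at 7wk. Its 3wk arrays alone ran from below to above every 7wk array, and the difference was -0.33 (SE 0.52, adjusted p = 0.755). Cox6b1, on the side of the enzyme that cytochrome c meets, stood at 1.14, 1.48 and 1.15 at 3wk, 1.25, 1.22 and 1.31 at 4wk, 0.824 and 0.992 at 5wk, 0.779, 1.01 and 0.800 at 6wk, and 0.784, 0.717 and 0.768 at 7wk. It fell by 0.72 (SE 0.14, adjusted p = 0.00933), without overlap between 3wk and 7wk.

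Cox6b2, the isoform known from testis, stood at 1.08, 1.0 and 1.57 at 3wk, 1.30, 0.977 and 1.30 at 4wk, 0.786 and 0.999 at 5wk, 0.975, 1.08 and 1.40 at 6wk, and 0.863, 0.956 and 0.780 at 7wk. Its difference was -0.47 (SE 0.21, adjusted p = 0.198). Cox7a2, the common isoform of a small membrane subunit, stood at 1.0, 1.20 and 1.10 at 3wk, 1.03, 1.08 and 1.14 at 4wk, 0.852 and 1.0 at 5wk, 0.869, 1.09 and 0.855 at 6wk, and 0.790, 0.835 and 0.850 at 7wk, and Cox7a2l, which joins complexes III and IV into larger assemblies and is no subunit of its own, stood at 0.847, 1.18 and 1.03 at 3wk, 0.863, 0.845 and 0.962 at 4wk, 1.01 and 0.972 at 5wk, 1.01, 1.10 and 1.09 at 6wk, and 1.0, 0.853 and 0.882 at 7wk. They measured -0.41 (SE 0.13, adjusted p = 0.0697) and -0.15 (SE 0.13, adjusted p = 0.548), neither called. Cox5a and Cox5b fell by 0.56 (SE 0.16, adjusted p = 0.0472) and 0.58 (SE 0.16, adjusted p = 0.0381). Of the remaining members, Cox7c, Cox6c and Cox8c measured -0.51, -0.18 and -0.08, and the probe sets of Cox6c disagreed (-0.64 and 0.28).

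Complex V joins a catalytic head, a stalk and a rotor in the membrane. Atp5b, the catalytic subunit of the head, fell by 0.53 (SE 0.13, adjusted p = 0.0309). Atp5a1, its partner, fell at 6wk by 0.50 (SE 0.13, adjusted p = 0.022) and measured -0.39 (SE 0.13, adjusted p = 0.0767) at 7wk. The probe sets of Atp5a1 measured -0.65, -0.51 and -0.35 at 6wk. In the same order they measured -0.0099, -0.60 and -0.56 at 7wk (adjusted p = 0.985, 0.00599 and 0.0279 over all probe sets, limma). Atp5d, a subunit of the central stalk, stood at 1.20, 1.68 and 1.57 at 3wk, 1.18, 1.24 and 1.47 at 4wk, 0.864 and 1.05 at 5wk, 0.533, 0.817 and 0.869 at 6wk, and 0.880, 0.844 and 0.946 at 7wk. Its 3wk arrays were all above its 7wk arrays, 6wk A was the lowest of all, and the difference was -0.72 (SE 0.20, adjusted p = 0.0408), a call held in 5 of the 14 fits without 1 array. The stator genes Atp5h and Atp5pb fell by 0.51 (SE 0.10, adjusted p = 0.00892) and 0.40 (SE 0.10, adjusted p = 0.0306), and both had fallen by 5wk.

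Atp5md, a small membrane subunit, stood at 1.01, 2.10 and 1.18 at 3wk, 1.11, 1.36 and 1.12 at 4wk, 0.783 and 0.840 at 5wk, 0.994, 1.60 and 0.729 at 6wk, and 0.576, 0.549 and 0.654 at 7wk. The 7wk arrays were the lowest 3 of the 14, 3wk B was far above 3wk A and C, and the difference of -1.20 (SE 0.30, adjusted p = 0.0267) was the lowest in complex V. At 6wk it was -0.37 (SE 0.30, adjusted p = 0.443), with 6wk B above every array but 3wk B. Another small membrane subunit, Atp5mpl, fell by 0.66 (SE 0.18, adjusted p = 0.0365).

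The c subunit, which forms the rotor ring, is encoded by 3 genes for the same mature protein, and none of the 3 was called at any age. Atp5g1 stood at 0.637, 1.23 and 0.985 at 3wk, 0.743, 0.735 and 1.10 at 4wk, 0.777 and 1.08 at 5wk, 1.06, 1.14 and 1.01 at 6wk, and 0.776, 0.863 and 1.09 at 7wk. Atp5g2 stood at 0.498, 1.43 and 1.09 at 3wk, 0.849, 0.719 and 0.557 at 4wk, 0.504 and 1.29 at 5wk, 1.11, 1.14 and 1.22 at 6wk, and 0.936, 0.838 and 0.947 at 7wk. Atp5g3 stood at 0.950, 1.15 and 1.14 at 3wk, 1.19, 1.11 and 1.23 at 4wk, 0.992 and 1.07 at 5wk, 0.845, 1.01 and 0.967 at 6wk, and 0.921, 0.880 and 0.972 at 7wk. The 3wk and 7wk arrays of Atp5g1 and of Atp5g2 overlapped widely, and the differences were -0.03 (SE 0.25, adjusted p = 0.967), -0.02 (SE 0.38, adjusted p = 0.986) and -0.22 (SE 0.12, adjusted p = 0.292). The 2 probe sets of Atp5g2 differed in sign (-0.39 and 0.36). Whether the c subunit genes differ from the other genes of complex V was not tested.

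Probe sets of the same gene mostly had the same sign. Of the 151 tested 144 were below 0 at 7wk, against 41.4% of all 18525 probe sets tested. In limma 56 of the 151 fell and 0 rose (also 0 at an unadjusted p under 0.05), where 2.6% of all probe sets fell and 5.93% rose. Among the 44 genes with several probe sets the signs differed in 5: Atp5c1 (-0.66 and 0.08), Atp5g2, Cox6c, Cox8a and Ndufs4 (-0.41 to 0.11).

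Other mitochondrial genes were taken from lists. Of 13 enzymes of the citric acid cycle tested, 10 fell by 7wk and 0 rose, with a median of -0.64; Idh2 measured -1.25 (SE 0.19), Idh3b -0.92 (SE 0.12) and Cs, citrate synthase, -0.73 (SE 0.11). Of 15 assembly factors and electron carriers 5 fell, with a median of -0.35: Cycs, cytochrome c (-0.72), Uqcc1, an assembly factor of complex III (-0.58), and Etfa, Etfb and Etfdh (-0.81, -0.81 and -1.03), which carry electrons from fatty acid oxidation to ubiquinone. Of 14 genes of exchange and import 4 fell (Slc25a5, Vdac2, Hspd1 and Hspe1), with a median of -0.36. Of 3 pyruvate dehydrogenase genes limma called 0, with values from -0.35 to -0.02.

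Glycolysis genes had a median of -0.07 over 11 tested, where Pgk1 fell (-0.45) and Hk1, Pfkp and Pkm rose (1.09, 0.68 and 0.58). Of 13 regulators of mitochondrial genes 4 fell, with a median of -0.20: Ppargc1a and Ppargc1b, coactivators of mitochondrial biogenesis (-1.31 and -1.18), Esrra, a nuclear receptor they work with (-0.63), and Ppara, the receptor for fat oxidation genes (-4.15). Nrf1 (-0.14), Gabpa (-0.20), Yy1 (0.22) and Tfam (0.21) were not called.

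**Figure D5:**
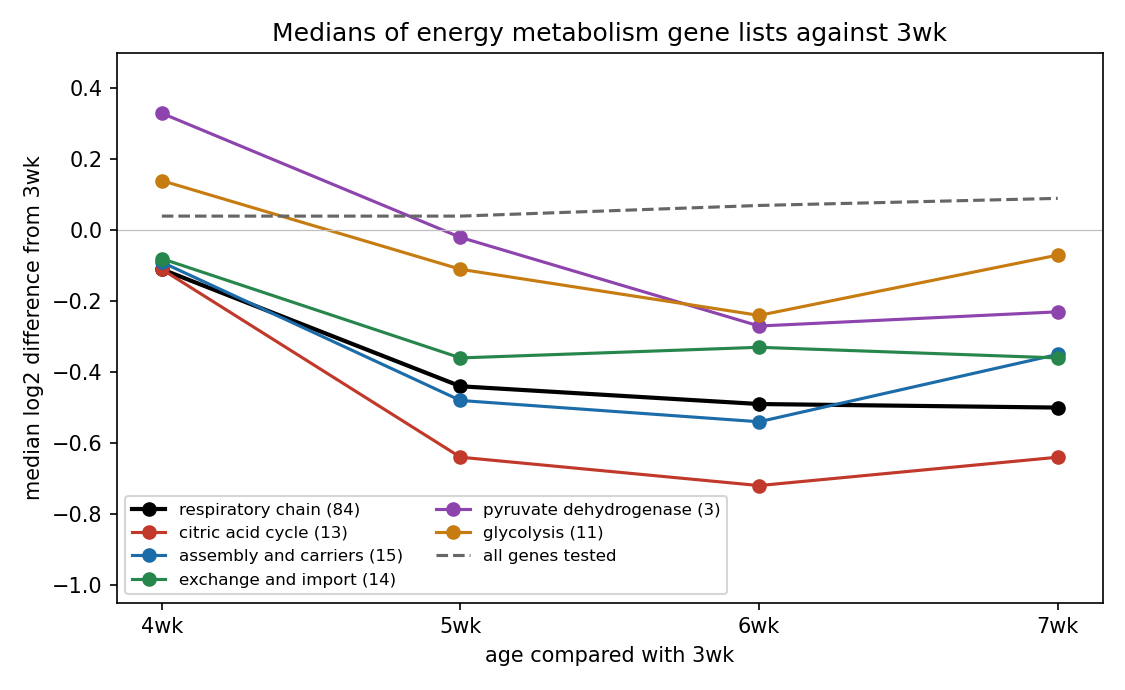
Median log2 difference from 3wk (vertical axis) at 4wk, 5wk, 6wk and 7wk for the 84 respiratory chain genes, 5 lists of energy metabolism (number of genes tested in brackets) and all genes tested; every point shares the 3wk arrays. At 7wk the citric acid cycle lies at -0.64, the respiratory chain at -0.50 and glycolysis at -0.07.

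Some markers of cell types moved over the same weeks, mainly those of brown fat and mammary epithelium. Of 8 brown fat markers tested 6 fell by 7wk, with a median of -1.37: Ucp1 (-3.01), Cidea (-1.43), Fabp3 (-4.11), Cox7a1 (-3.33), Ebf2 (-0.77) and Ppargc1a, which is also on the list of regulators; Dio2 and Elovl3 measured -0.05 and 0.45. The mean ratio of the brown fat list ran from 2.81 to 3.91 at 3wk and from 1.90 to 3.09 at 4wk. It ran from 0.807 to 1.01 at 5wk, from 0.720 to 0.851 at 6wk and from 0.674 to 0.998 at 7wk. As for the respiratory chain median, every 3wk and 4wk array stood above every later one. That order was not particular to brown fat. In mean ratio, the lists of general fat cells, the citric acid cycle, assembly and carriers, exchange and import, and regulators had it too. For general fat cells it was narrow, with 1.04 on 3wk C against 1.02 on 6wk B. A mean of ratios can rest on 1 gene. Among the regulators Ppara had a mean ratio of 7.94 at 3wk, 6.44 at 4wk and 0.176 at 6wk, and the list was not averaged without it. The mammary epithelial list had the reverse order. Of 8 general fat cell markers 2 fell (Adipoq at -0.43 and Fabp4 at -0.68), with a median of -0.30. Their mean ratio over the 8 was 1.04 to 1.14 at 3wk and 0.892 to 0.953 at 7wk. Lep went the other way (0.77) and the rest measured from -0.66 (Pparg) to -0.18 (Cd36), none of them called. Of 8 mammary epithelial markers 6 rose, with a median of 1.70, and their mean ratio went from between 0.327 and 0.536 at 3wk to between 1.05 and 1.44 at 7wk.

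The mean ratio of the skeletal muscle list stood apart on 1 array: over 9 genes it was 6.76 on 3wk A. It was 0.826 to 1.24 on 3wk B and C and 0.882 to 1.33 at 7wk, and limma called 0 of the 9. That mean leaned on a few genes. At 3wk Myh1 averaged 13.2 (SD 21.6, n = 3), Mb 3.44 (SD 2.63) and Acta1 2.92 (SD 3.88). The other muscle genes averaged from 0.437 (Myh4) to 1.52 (Tnnt3) at 3wk. Without 3wk A 38 of the 84 respiratory chain genes fell by 7wk, where 2.37% of all genes fell, and the complex medians lay between -0.82 and -0.49. Of 6 macrophage markers 1 rose (median 0.31, mean ratio 0.588 to 0.981 at 3wk and 1.03 to 1.27 at 7wk), and of 6 fibroblast markers 1 fell (median -0.0005, 0.806 to 0.998 and 0.903 to 1.0). The part that brown fat, other cell types, RNA quality or hybridisation had in the fall of the respiratory chain genes was not tested. Ratios hold no absolute level, so how abundant a marker was cannot be read from them.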

How the data were processed

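The authors deposited 1 table of linear ratios for 22690 probe sets on 14 Affymetrix arrays; the sources used here do not name the software behind the signals. Tests on the deposited ratios showed a median over the arrays of 1 within 0.001 for 98.48% of probe sets, so each had been divided by its own median, which removes absolute level. Each array had its own smallest signal step, and whole numbers of steps gave back the undivided level of 10389 probe sets. Of these, 4101 under 200 steps on all or all but 1 of the arrays were left out with 64 control probe sets, leaving 18525. Platform annotation named 1 gene for 20380 probe sets, several for 691 and none for 1555; all member symbols matched RefSeq (GRCm38.p6). Array medians differed by at most 0.0938 on the log2 scale, and no normalization or offset was added. The number of arrays limits the precision.

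Age was fitted as a factor to all 14 arrays with limma 3.58.1 (R 4.3.3), giving an F test and 7 comparisons, two-sided, Benjamini-Hochberg adjusted over 10696 genes, threshold 0.05; the code was tested on simulated data. Tables and plots used Python 3.11.15, pandas 2.3.3 and matplotlib 3.10.9. Values on every array are given for complex II, for the 2 lowest and the highest gene of each other complex at 7wk against 3wk, and for isoform pairs and the c subunit genes. The members, lists and rules were chosen with earlier results of these data known. Alternatives covered the filter, scaling, offset, probe set summary, RNA quality, hybridisation controls, replicate letters, membership and each array.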

Additional observations from a re-analysis of the deposited data

How the results depend on the processing

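The median of each complex at 7wk against 3wk stayed below 0 under every alternative run, and moved least without 1 array in complex IV (-0.53 to -0.44) and most in complex III (-0.82 to -0.59). Counts moved more. With hybridisation controls as a covariate the F test called 6 (5.54% of all genes) and 7wk against 3wk 4 (0.645% of all genes fell). With probe sets of unrecovered, higher level only, an alternative chosen after seeing the data, the F test called 47 of 80 (20.6% of all genes in that fit). Without the low-level filter 12 became 7 at 5wk (0.960% of all genes fell). With the actin ratio as a covariate 22 were called at 6wk (1.15%), and 19 without 6wk A and 6wk B (1.57%), where the lone 6wk array is assumed to vary like the other ages. The 2 genes of 5wk against 4wk became 0 in each of these fits except the one on brighter probe sets, where 2 were called, and also with the median of probe sets. Leaving out 1 array at a time, other than a 5wk array, gave 15 to 36 for the F test (7.68% to 9.30% of all genes). At 5wk it gave 3 to 12 (0.860% to 1.72% of all genes fell) and at 6wk 16 to 39 (2.69% to 4.16%). At 7wk it gave 18 to 40 (1.54% to 2.97%), and for 5wk against 4wk 0 to 2 (0.0561% to 0.505%). With the replicate letter as a block (replicate block) the F test called 27 (9.18% of all genes). In that fit 38 fell at 6wk (4.18% of all genes), 39 at 7wk (2.84%) and 0 for 5wk against 4wk (0.0935%). Same-letter arrays correlated at -0.072 to 0.085 (26 pairs) in their deviations from the age means. Different letters correlated at -0.115 to 0.09 (52 pairs), so the letters were not taken as pairs. Among the genes with values on every array 0 changed direction where called. The ratios hide which probe sets are dim unless the step could be recovered, and ratios of dim probe sets vary more.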
